A study of Oryza sativa Japonica Group with 9 samples.

Results

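The regions described here are 236 places in the rice genome where JMJ705 was found on chromatin in a wild-type background, without an overlapping peak in a wox11 mutant background, and far from any named gene. They were chosen from the peak lists themselves. A peak of the wild-type-background list was kept when it shared no base with any peak of the wox11-background list and its nearest edge lay more than 1 kb from every locus that carries a gene name in the expression tables. The wild-type-background list holds 1551 peaks, of which 1115 had no overlapping wox11-background peak. Of those, 236 lay far from named loci and 879 lay within 1 kb of one. Both lists together hold 2860 peaks. Widths, tags, scores, fold enrichments and distances belong to the measurement that chose the peaks, so they are given as a description and without a test.

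JMJ705 is a rice demethylase with a JmjC domain, and its substrate is histone H3 methylated at lysine 27. Trimethylation of that lysine is laid down by Polycomb complexes and marks genes that are kept silent during development, and demethylases of this family can take it off again. WOX11 belongs to the WUSCHEL-related homeobox factors and is known for its role in crown root formation and in shoot growth. Comparing JMJ705 peaks in a wild-type and in a wox11 mutant background addresses the question of which places JMJ705 occupies in apices of each kind.

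Material came from shoot apices of 2 to 3 mm, cut from 5-day-old rice seedlings of the japonica group; such an apex contains the meristem and leaf primordia. For chromatin immunoprecipitation and sequencing, apices over-expressed JMJ705, either in the wild-type or in the wox11 mutant background, and fragments were recovered with anti-FLAG; each background had 1 library and 1 peak list. For RNA, apices of the cultivar Hwayoung carried no over-expression and were labelled wild type, wox11 or jmj705, the last pair being mutants, and each genotype had 2 libraries. The sources used here do not give the lesions of the mutants, the promoter that drives JMJ705 or whether a line is 1 transformant. Both chromatin libraries carry the over-expressed protein, so none of the peaks describes JMJ705 at its natural level.

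With 1 library per background, absence of an overlapping peak in the wox11 background has no replicate check. The wild-type-background library had 4488720 tags after the caller's filter and the wox11-background library 6811451, a mean of 11.2 and 17.03 tags per kb of the genome size the caller used. Their controls had 15531116 and 11816531 tags, and so were not the same, while the labels list 1 input DNA sample, from the wild-type background. What served as control for the wox11-background list, over which its fold enrichments were computed, is therefore not known here. The peaks examined therefore came from the shallower of the libraries, set against the deeper control. No genome build for the coordinates is named in the sources, and sequence, repeats and centromeres under the peaks were not analysed here.

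The labels were checked against the RNA. In the wild type the meristem genes OSH1, OSH15 and OSH71, all KNOX homeobox genes, stood at 59.7 ± 9.31, 39.7 ± 2.33 and 50.9 ± 1.30 FPKM (SD, n = 2). The leaf primordia genes YAB1 and DL stood at 27.9 ± 4.41 and 15.9 ± 0.407 FPKM (SD, n = 2). The leaf antenna genes CAB1R and CAB2R stood at 497 ± 10.9 and 503 ± 26.9 FPKM (SD, n = 2), so transcripts of leaf mesophyll were in the samples as well. The root gene RCc3 was at 118 ± 39.7 FPKM (SD, n = 2). WOX11 itself was 4.76 ± 0.342 FPKM in the wild type, 1.30 ± 0.272 in wox11 and 6.06 ± 2.11 in jmj705 (SD, n = 2 each), with a log2 change of -1.33 in wox11 (adjusted p = 0.0575 by limma). JMJ705 was 7.07 ± 0.482 FPKM in the wild type, 8.25 ± 0.202 in wox11, and 13.1 ± 0.840 in both libraries labelled jmj705 (SD, n = 2 each). Its transcript was thus higher in both libraries labelled jmj705 than in either wild-type library, which goes against what the label would lead one to look for, and the difference did not pass the test (log2 change 0.81, adjusted p = 0.0634 by limma). Directions drawn from these libraries are given for the libraries as labelled.

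Far peaks made up 21.2% of the wild-type-background-only peaks (236 of 1115; exact 95% binomial interval 18.8 to 23.7%). The same share was 27.8% among peaks that overlapped the other list (121 of 436; 23.6 to 32.2%) and 21.7% among peaks found in the wox11 background alone (189 of 871; 19.004 to 24.6%). These intervals cover counting error only, and peaks that lie side by side are not independent of each other. Ground more than 1 kb from every named locus makes up 29.6% of the span covered by loci and peaks on the 12 chromosomes (110 of 373 Mb). All 3 classes of peaks held a smaller share of far positions than the span did, and for the overlapping peaks the interval included the span's share. These are unlike measures, since the span counts single bases, whereas a peak was far only if its whole width cleared 1 kb. The difference therefore does not show that peaks avoid such ground.

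Most far peaks were not remote. The gap between a peak's edge and the nearest named locus ran from 1032 to 115508 bp, with a median of 2884 bp and quartiles at 1783 and 6564 bp. In 78 of the 236 (33.1%) the gap was at most 2 kb, and in another 86 (36.4%) it was above 2 and at most 5 kb. A further 28 peaks (11.9%) lay above 5 and at most 10 kb away, 30 (12.7%) above 10 and at most 50 kb, and 14 (5.93%) above 50 kb. The class therefore joins a large group that sits just outside the gene borders and a smaller group in long stretches with no named locus. The nearest locus lay at lower coordinates than the peak for 122 of the 236 peaks and at higher coordinates for 114, close to an even split.

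**Figure D1:**
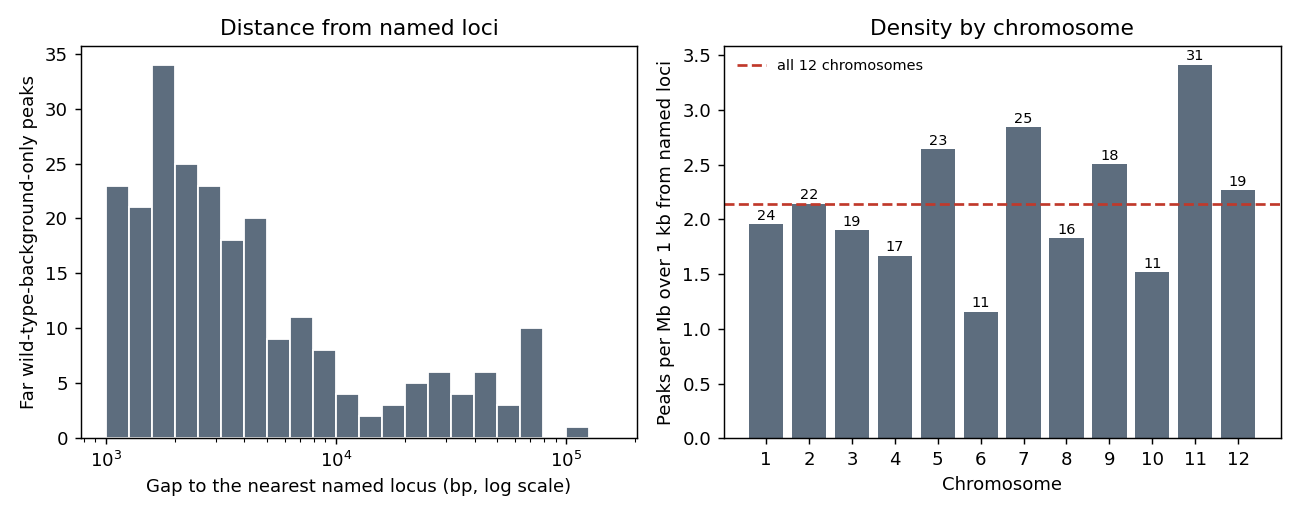
Left, number of far wild-type-background-only peaks by gap to the nearest named locus (bp, log scale); right, far peaks per Mb of ground more than 1 kb from named loci on each chromosome, with the number of peaks above each bar and the value over all 12 chromosomes as a dashed line. Most gaps lie below 10 kb with a lower group above 10 kb, and chromosome 11 has the highest density, 3.41 peaks per Mb.

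The threshold cuts through a continuum. Just inside it stood chr4:14445794-14446699, 1032 bp from LOC_Os04g25040, with 50 tags and 10.2-fold enrichment over control. Next came chr6:11635428-11636254 at 1035 bp from LOC_Os06g20280 and chr1:43084072-43084752 at 1038 bp from LOC_Os01g74380, with 26 tags each and 5.88-fold and 5.76-fold enrichment. Just outside it stood chr1:36940364-36940877 at 999 bp (19 tags, 6.46-fold), chr2:17653168-17654694 at 994 bp (62 tags, 5.61-fold) and chr5:3282002-3282697 at 980 bp (25 tags, 7.40-fold). Tags and enrichment of the peaks on either side of the border overlapped.

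The typical far peak was narrow and carried few tags. Its width had a median of 925 bp (range 337 to 6788 bp), near the 906 bp of wild-type-background-only peaks within 1 kb of loci and below the 1115.5 bp of peaks that overlapped the other list. Tags per peak had a median of 36 (range 17 to 2097), against 32 for the peaks near loci and 62 for the overlapping ones. Among the 121 overlapping peaks that were also far from loci, the medians were 1138 bp and 76 tags. The 189 far peaks found in the wox11 background alone had 921 bp and 44 tags, counted in the deeper library.

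In enrichment over control, too, the middle of the class lay near that of the other wild-type-background-only peaks. The authors' fold enrichment had a median of 6.65 (range 3.14 to 17.29), against 6.21 for wild-type-background-only peaks near loci and 9.75 for overlapping peaks. The score, which is 10 times the negative log10 of the caller's p-value, had medians of 72.4, 69.7 and 168 in that order. Enrichment of at least 10-fold was reached by 25 far peaks (10.6%), by 72 of the 879 peaks near loci (8.19%) and by 212 of the 436 overlapping peaks (48.6%). By their medians, wild-type-background-only peaks were lower in score and fold than overlapping peaks whether they lay near loci or far from them. The false discovery rate given by the caller was 1.33 to 4.76% for all far peaks. For far peaks of the wox11 background alone it was 5.60 to 30.77%, with a median of 6.03%. The lists were thus not alike in this measure.

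The upper end of the class differed from that of the peaks near loci, as it did for far peaks of the other classes. At least 100 tags were found in 30 far peaks (12.7%), in 12 peaks near loci (1.37%) and in 110 overlapping peaks (25.2%). A width above 3000 bp occurred in 11 far peaks (4.66%) and in 5 of the peaks near loci (0.569%). Far peaks that overlapped the other list reached 100 tags in 36.4% and a width above 3000 bp in 4.96% of cases, and far peaks of the wox11 background alone in 14.8% and 5.82%. At least 500 tags were found in 5 far peaks, in 3 peaks near loci and in 4 overlapping peaks. Large, tag-rich peaks were therefore a larger share of the far peaks than of the peaks near loci, although the medians of both lay close together, and they were not particular to the wild-type background.

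The richest far peak was chr11:12277495-12282473, 4979 bp wide and 14838 bp from LOC_Os11g21840. It held 2097 tags (exact 95% Poisson interval 2008 to 2189, counting error only), which is 37.5 times the genome mean density of its library. Its fold enrichment over control was 3.81, below the median of the class. The next were chr7:12163050-12167562 with 724 tags (672 to 779) and 3.55-fold enrichment, and chr11:12118255-12122169 with 708 tags (657 to 762) and 6.86-fold enrichment. They were followed by chr10:8107492-8110928 with 575 tags (529 to 624) and 5.84-fold enrichment, and by chr9:2826639-2833426 with 554 tags (509 to 602) and 5.05-fold enrichment. All 5 were dense in tags, at 7.27 to 37.5 times the genome mean, and 4 of them had a fold enrichment below the median of the class.

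The widest peaks were of the same kind. They were chr9:2826639-2833426 (6788 bp), chr12:12051957-12058607 (6651 bp, 441 tags, 4.17-fold), chr11:12277495-12282473 (4979 bp), chr11:12182372-12187144 (4773 bp, 482 tags, 5.41-fold) and chr12:12038458-12042999 (4542 bp, 328 tags, 3.15-fold). Each of them lay at least 8330 bp from a named locus, and the peaks on chromosomes 11 and 12 belong to runs of neighbouring peaks described further on.

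The peaks with the highest fold enrichment were other, smaller peaks. They were led by chr12:17446749-17448106, 3107 bp from LOC_Os12g29370, with 17.29-fold enrichment, 98 tags (80 to 119) and a score of 445.9. It was followed by chr1:20864327-20865058 (15.46-fold, 60 tags), chr3:15705834-15706856 (15.07-fold, 46 tags), chr9:13454878-13456640 (14.66-fold, 125 tags) and chr3:21444979-21446057 (13.74-fold, 59 tags). None of them was among the 5 richest or the 5 widest. Of these peaks, chr1:20864327-20865058 had a wox11-background peak 784 bp away, and among the others the closest was 43271 bp away, from chr9:13454878-13456640.

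Across the 236 peaks, width and tags rose together (Spearman's rho 0.893), while tags and fold enrichment did not (rho -0.03). The gap to the nearest named locus was related to tags with rho 0.401, to width with rho 0.344 and to fold enrichment with rho -0.297. These values describe 236 peaks of 1 library that share depth and control, and some peaks are neighbours. By distance, median tags were 31.5, 35, 35, 75.5 and 102.5 in the bins up to 2, 5, 10 and 50 kb and beyond. Median fold enrichment over the same bins was 7.09, 6.99, 7.20, 5.59 and 5.49. By these medians, peaks beyond 10 kb carried more tags and lower enrichment over control than peaks close to genes. The last bins hold 30 and 14 peaks, and they are not spread over the genome. All 14 peaks beyond 50 kb lay in 2 runs of neighbouring peaks, on chromosomes 11 and 7, described further on. Outside the 3 longest runs no gap exceeded 35866 bp. The medians of the last bins thus largely describe a few places, and a relation with distance apart from these runs was not tested.

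**Figure D2:**
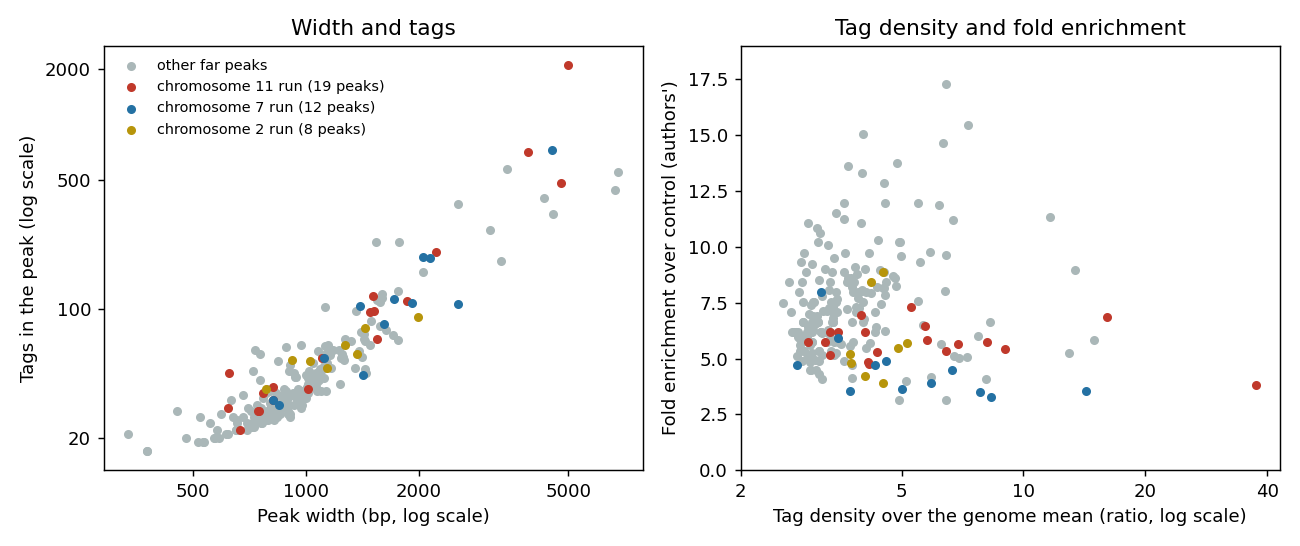
Each point is 1 of the 236 far peaks, coloured by the 3 longest runs; left, tags against width (both log scales), right, the authors' fold enrichment against tag density over the genome mean (log scale). Tags rise with width, while dense peaks differ in fold enrichment: the densest, 37.5 times the genome mean and in the chromosome 11 run, has 3.81-fold, and the peak at 11.6 times has 11.33-fold.

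Far peaks were unevenly spread. Over all chromosomes there were 2.14 far peaks per Mb of ground more than 1 kb from named loci. Chromosome 11 had the most, 31 peaks or 3.41 per Mb, followed by chromosome 7 with 25 or 2.84, chromosome 5 with 23 or 2.64 and chromosome 9 with 18 or 2.50. Chromosome 6 had the fewest, 11 peaks or 1.16 per Mb, followed by chromosome 10 with 11 or 1.52. Of these peaks, 19 on chromosome 11 and 12 on chromosome 7 lay in 1 short stretch each.

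Of the 236 far peaks, 156 had no other far peak within 100 kb, and 80 (33.9%) had one; 45 (19.1%) had one within 10 kb. The gap to the nearest other far peak had a median of 291839 bp and a range of 403 to 16122259 bp. Peaks near loci, which are more numerous, had another of their kind within 100 kb in 335 of 879 cases (38.1%). Joining far peaks with gaps of at most 100 kb gave 20 runs, of which 13 were pairs, 7 held 3 or more peaks and 4 held 5 or more. Those 4 held 44 far peaks (18.6%). The far peaks were thus mostly solitary, with a few dense runs.

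The longest run was chr11:12060006-12378912, with 19 far peaks in 319 kb that holds 3 named loci. Tags in its peaks ran from 22 to 2097 with a median of 54, widths from 622 to 4979 bp, and fold enrichment from 3.81 to 7.33. Between them lay 14 peaks that overlapped a wox11-background peak and 8 peaks of the wox11 background alone. The gap from a far peak of this run to the closest wox11-background peak was 33 to 24053 bp, with a median of 1700 bp. The closest were chr11:12082224-12083330 at 33 bp, chr11:12291949-12292768 at 57 bp and chr11:12105626-12106249 at 58 bp. The far peaks of this run thus lay interspersed with places occupied in the wox11 background. The farthest far peak of all, chr11:12378165-12378912 at 115508 bp from a named locus, closed the run with 28 tags.

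The run chr7:12138765-12269518 held 12 far peaks in 131 kb with no named locus between them. Its peaks carried 30 to 724 tags with a median of 105 and had fold enrichments of 3.30 to 7.99 with a median of 4.19. Shared peaks numbered 5 and peaks of the wox11 background alone 4, and the gap to the closest wox11-background peak was 185 to 7722 bp. Every far peak of this run thus had a wox11-background peak within 10 kb. The poorest of its peaks in tags, chr7:12187475-12188322 with 30 tags (20.2 to 42.8), had the highest enrichment, 7.99-fold, while chr7:12195638-12197688 with 191 tags (165 to 220) had 3.30-fold. The latter was the third farthest from a named locus, at 74756 bp, and chr7:12201446-12203063, with 83 tags, was the fourth at 69381 bp.

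The run chr2:13612380-13881991 differed in setting: 8 far peaks in 270 kb that holds 21 named loci. Its peaks were more alike, with 37 to 91 tags and 3.90-fold to 8.87-fold enrichment. It held 1 shared peak and 6 peaks of the wox11 background alone, and gaps to the closest wox11-background peak were 337 to 64846 bp. The richest of its peaks was chr2:13723596-13725588 with 91 tags (73.3 to 112), and the most enriched chr2:13818834-13820102 with 64 tags (49.3 to 81.7). On chr12:11951506-12058607, 5 far peaks with 23 to 441 tags and at most 5.63-fold enrichment lay in 107 kb, and none had a wox11-background peak closer than 13140 bp. A run of 4 at chr2:13152993-13272473 had no wox11-background peak within 99914 bp, with 28 to 57 tags and a median enrichment of 9.91-fold. In these last runs, unlike those of chromosomes 11 and 7, the surroundings held few or no wox11-background peaks.

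**Figure D3:**
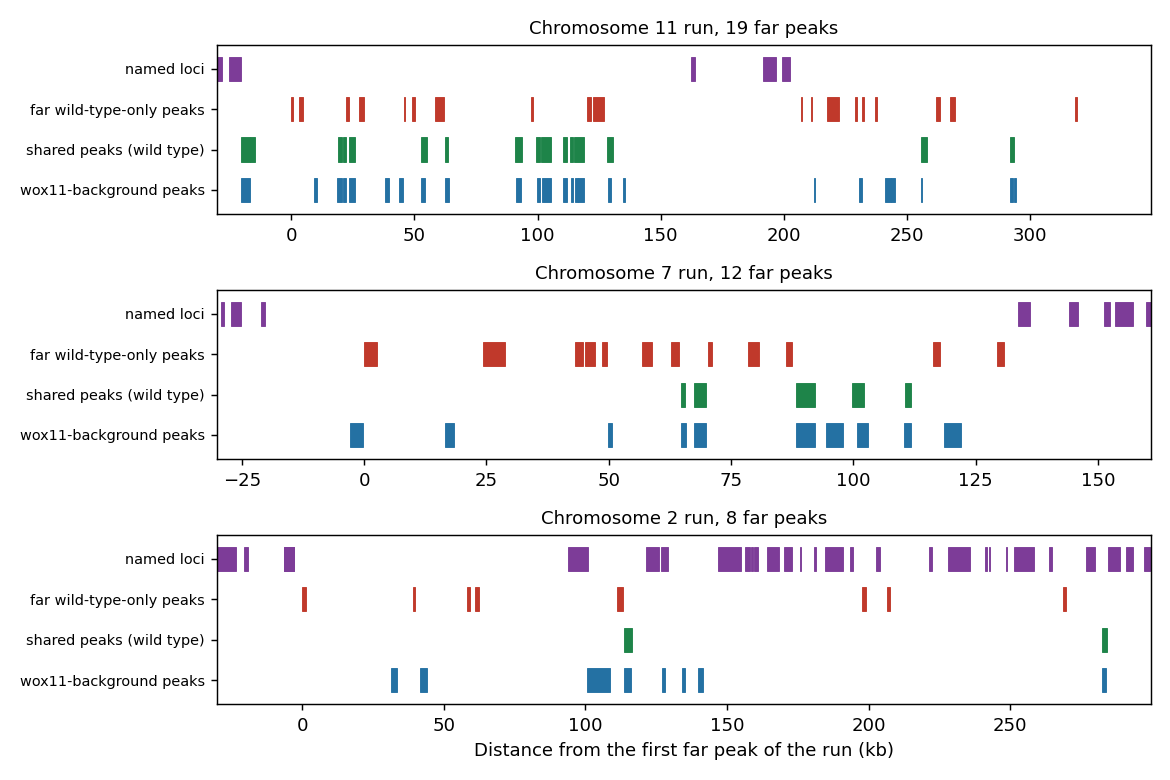
Positions in kb from the first far peak in the 3 longest runs (chromosomes 11, 7 and 2), with named loci, far wild-type-background-only peaks, shared peaks of the wild-type-background list and all wox11-background peaks in separate rows, drawn to scale. On chromosomes 11 and 7 the far peaks lie interspersed with wox11-background peaks, and the chromosome 7 run of 12 peaks contains no named locus.

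The 39 peaks of the 3 longest runs stood apart from the other 197 in distance, width and tags. Their median gap to a named locus was 40912 bp against 2410 bp, their median width 1392 bp against 898 bp, their median tags 64 against 34, and their median fold enrichment 5.35 against 7.09. A wox11-background peak lay within 10 kb of 31 of the 39 and of 24 of the 197. The closest one was at a median of 2764 bp from the peaks in runs and 99319 bp from the others. In all, 17 far peaks (7.20%) had a wox11-background peak within 1 kb, 55 (23.3%) within 10 kb and 140 (59.3%) within 100 kb. For wild-type-background-only peaks near loci these numbers were 15 (1.71%), 79 (8.99%) and 447 (50.9%). Most of the far peaks outside these 3 runs were thus isolated from wox11-background peaks, and most of those inside were not. The runs differed, with a median gap of 1700 bp on chromosome 11, 1861 bp on chromosome 7 and 15528 bp on chromosome 2.

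Parts of the runs lay in the longest stretches without named loci. The longest such stretch of each chromosome was taken, 12 stretches that together make up 0.306% of the span and 1.04% of the ground more than 1 kb from loci. They held 36 far peaks (15.3%), with members in 9 of the 12. The stretch on chromosome 7 (154 kb) held 12, that on chromosome 11 (236 kb) 9, and that on chromosome 2 (96.6 kb) 4. Those on chromosomes 9, 10, 12, 6, 1 and 5 held 3, 2, 2, 2, 1 and 1, and those on chromosomes 3, 4 and 8 held none. The stretches also held 8 of the 121 far shared peaks (6.61%) and 22 of the 189 far peaks of the wox11 background alone (11.6%). Far positions of every class were thus found in these stretches. Outside the 3 longest runs, far peaks sat in ground of ordinary gene density, with a median of 146 named loci per Mb within 500 kb on either side. The median was 125 in those runs and 149 around the peaks near loci.

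Expression values were not used to choose the peaks, so the RNA libraries give an independent view of the loci beside them. The 236 peaks had 207 nearest named loci. Of these, 58 (28.0%) reached 1 FPKM in 2 or more libraries, the level required for testing, against 38.6% of all named loci, 41.0% of the 1499 loci nearest to peaks within 1 kb and 35.8% for shared peaks. At the other end, 97 (46.9%) were listed at 0 in all 6 libraries, against 41.0% of all named loci and 33.9% of the loci of peaks within 1 kb. The share of neighbours with measurable transcript was thus smaller than among named loci at large, which is a description of these lists and no test. In a whole apex, fewer cells with a transcript and less of it per cell cannot be told apart. The most abundant neighbour was LOC_Os11g20790, the locus closest to 7 peaks of the chromosome 11 run, at 230.4 and 297 FPKM in the wild-type libraries, 229.9 and 244 in wox11 and 242 and 208 in jmj705. Its groups overlapped, and it lies 20526 bp from the nearest of its peaks. LOC_Os01g50934, beside a pair of peaks at chr1:29253540-29255120 and chr1:29258768-29260196, stood at 118 to 177 FPKM in the 6 libraries. LOC_Os08g12820, beside chr8:7598645-7599995, stood at 63.4 to 76.8 FPKM, with the genotypes overlapping in both cases.

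Few of the neighbours changed in either mutant. In wox11 against wild type, 0.838% of all 21480 tested loci were called at adjusted p under 0.05 (98 or 0.456% higher and 82 or 0.382% lower; limma), and 1 of the 58 tested neighbours was called, lower. In the libraries labelled jmj705 the background was 0.4% (69 or 0.321% higher and 17 or 0.0791% lower), and again 1 of the 58 was called, higher. At an unadjusted p under 0.05 there were 4 and 9 of the 58, against 10.5% and 11.99% of all tested loci. The median log2 change of the neighbours was -0.06 and -0.04, beside -0.02 over all tested loci in both comparisons. With 1 call among 58, the share does not stand apart from the background, and both comparisons use the same wild-type libraries.

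The neighbour called in wox11 was LOC_Os02g19820 (chr2:11592220-11596451), for which the files give no gene description. It stood at 82.4 and 105.7 FPKM in the wild-type libraries, 45.4 and 50.5 in wox11 and 83.7 and 81.0 in jmj705. Both wox11 libraries were below all 4 others, and the wild-type and jmj705 libraries overlapped. Its log2 change in wox11 was -0.95 (SE 0.15, adjusted p = 0.0427 by limma). The call was lost in 8 of 14 other settings, among them leaving out any of the 6 libraries, with adjusted p between 0.0310 and 0.330. The peak beside it, chr2:11605423-11606169, lies 8971 bp away and is a small one of 25 tags and 7.38-fold enrichment, 62033 bp from the closest wox11-background peak. In the same wox11 libraries the leaf genes CAB1R and CAB2R stood at 236 ± 145 and 168 ± 94.7 FPKM and RCc3 at 42.9 ± 26.8 (SD, n = 2), all below their wild-type means without passing the test. OSH1, OSH15, OSH71 and DL were below theirs too, at 44.3 ± 2.24, 30.0 ± 4.49, 34.0 ± 0.525 and 11.2 ± 3.26 FPKM (SD, n = 2). YAB1 was above its own, at 31.6 ± 5.14 FPKM (SD, n = 2), and none of these was called. The part of the marker genes in the result was not tested.

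The neighbour called in the libraries labelled jmj705 was LOC_Os05g33140 (chr5:19435358-19436734), also without a description. It stood at 48.6 and 25.4 FPKM in the wild type, 71.8 and 58.3 in wox11 and 167 and 217 in jmj705. The 3 genotypes did not overlap, and jmj705 was highest. Its log2 change in jmj705 was 2.40 (SE 0.29, adjusted p = 0.0272 by limma), and that in wox11, 0.86, did not pass (adjusted p = 0.339). The jmj705 call was lost in 4 of 14 other settings, among them leaving out either jmj705 library (adjusted p = 0.0985 and 0.158). The peak beside it, chr5:19432021-19432992, lies 2365 bp away at lower coordinates and has 29 tags and 7.09-fold enrichment. In the libraries labelled jmj705, CAB1R and CAB2R stood at 329 ± 41.3 and 296 ± 8.90 FPKM and RCc3 at 117 ± 20.3 (SD, n = 2). OSH1, OSH15 and OSH71 stood at 59.0 ± 14.4, 40.4 ± 10.3 and 51.1 ± 9.56 FPKM (SD, n = 2). YAB1 and DL stood at 26.5 ± 2.41 and 13.6 ± 0.756 FPKM (SD, n = 2). None of these marker genes was called, and their part in the result was not tested.

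**Figure D4:**
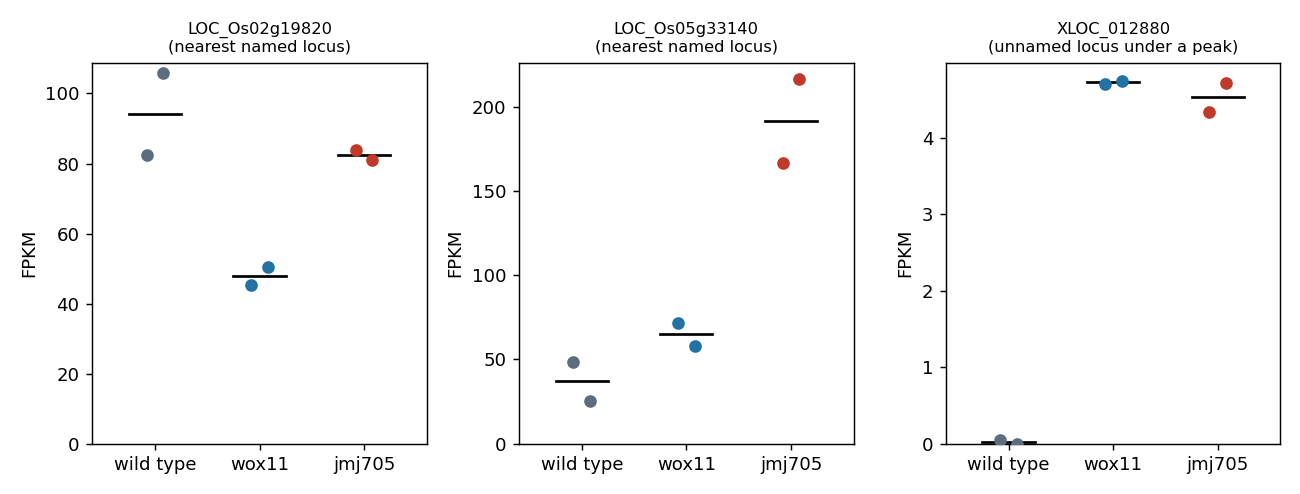
FPKM in each of the 6 RNA libraries (points) with the mean of each genotype (line) for the nearest named loci that passed the test and for the unnamed locus under a far peak. LOC_Os02g19820 is low in wox11, LOC_Os05g33140 is high in jmj705, and XLOC_012880 is near 0 in the wild type and between 4.34 and 4.74 FPKM in both mutants.

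Far from named loci does not mean far from any transcript. The expression tables also list 1848 loci without a gene name, and 28 of them lay within 1 kb of 24 far peaks (10.2%). Of these loci, 20 were overlapped by 20 far peaks. The share of peaks with such a locus was 15.7% for far shared peaks and 4.23% for far peaks of the wox11 background alone. With all unnamed loci admitted, the tested loci rose from 21480 to 22389, so passing this level was common among unnamed loci. Of the 28, 1 was listed at 0 in all 6 libraries, and 12 reached 1 FPKM in 2 or more. The share at 0 over all unnamed loci was not counted, so neither count sets these 28 apart from unnamed loci at large. Those 12 were low, with values below 8 FPKM in every library, except for XLOC_013551 (chr11:13506334-13507268), which lies wholly within the peak chr11:13506218-13507288 (40 tags, 5.87-fold). It stood at 233 and 193 FPKM in the wild type, 175 and 165 in wox11 and 199.96 and 193 in jmj705, and did not pass the test in either mutant (log2 change -0.32 and -0.11).

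XLOC_012880 (chr11:4351300-4354084, 2785 bp) was the only one of the 12 tested unnamed loci beside far peaks that was called in a mutant. It overlaps the far peak chr11:4353156-4354294, which is 1139 bp wide with 51 tags and 8.06-fold enrichment and lies 6919 bp from LOC_Os11g08285. It was listed at 0.04996 and 0 FPKM in the wild-type libraries, at 4.70 and 4.74 in wox11 and at 4.34 and 4.72 in jmj705. All 4 mutant libraries were above both wild-type libraries, and the mutants overlapped each other. In a fit that also holds the unnamed loci, chosen after the data were seen, 0.853% and 0.438% of 22389 loci were called in wox11 and jmj705. XLOC_012880 was called in both, with log2 changes of 2.48 (SE 0.15, adjusted p = 9.09e-04 by limma) and 2.43 (SE 0.15, adjusted p = 0.00141). The locus reached the level required for testing through the mutant libraries alone, so it could enter the fit only with a difference. Without that filter its adjusted p was 0.0121 and 0.0113 by limma. The change is on the log2(FPKM + 1) scale, and its size depends on the pseudocount: 5.30 and 5.24 with 0.1 added, 0.95 and 0.92 with 5 added. Under all 11 alternatives the log2 change of XLOC_012880 stayed positive, at 0.95 to 5.30 in wox11 and 0.92 to 5.24 in jmj705. All of these except the fit without the filter keep it, so they share its limit and are not independent support. The same wild-type libraries serve both comparisons.

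Among the 28 unnamed loci beside far peaks, XLOC_035452 and XLOC_030014 were lowest in both wild-type libraries, at far lower levels than XLOC_012880. XLOC_030014 stood at 0.194 and 0.282 FPKM in the wild type and at 0.290 to 0.679 in the mutants. The reverse order, with both wild-type libraries highest, was found for XLOC_024880, XLOC_027638 and XLOC_009228. XLOC_024880 stood at 2.22 and 1.87 FPKM in the wild type and at 1.13 to 1.48 in the mutants. XLOC_027638 stood at 3.33 and 3.78 and at 2.70 to 3.06. Neither was called in either mutant. The share of all loci with either order was not counted, so neither order is read as a trait of loci beside far peaks. XLOC_035452 (chr4:4550758-4553132), under the peak chr4:4552326-4553394 (36 tags, 5.27-fold), stood at 0.0303 and 0.0149 FPKM in the wild type, 0.564 and 0.509 in wox11 and 0.591 and 0.423 in jmj705. It lay below the level required for testing, and in a fit without that level it was not called (adjusted p = 0.115 in wox11 and 0.113 in jmj705 by limma). XLOC_035470 (chr4:19217336-19217624), under chr4:19216822-19217928 (56 tags, 8.18-fold), stood at 5.84 and 1.76 FPKM in the wild type, 7.79 and 6.29 in wox11 and 5.56 and 4.91 in jmj705. Its groups overlapped between wild type and jmj705, and it was not called.

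The rule leaves no named locus within 1 kb of a far peak, so distances to the genes for the H3K27 methylation machinery are given as description. None of these genes had a far peak within 10 kb. The share of all named loci with a far peak that close was not counted. The list holds CLF and EZ1 (catalytic subunits of the Polycomb complex that methylates H3K27), FIE1, FIE2, EMF2A and EMF2B (its other subunits) and JMJ705. The closest far peak to any of the 7 was 262 kb away, from EMF2A, and the farthest was 2306 kb, from JMJ705. Of the 7 genes, 6 passed the expression filter and none was called in either mutant. CLF stood at 53.6 ± 3.17 FPKM in the wild type, 50.8 ± 3.35 in wox11 and 45.9 ± 1.57 in jmj705 (SD, n = 2 each), and FIE1 was listed at or below 0.0221 FPKM in every library.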

How the data were processed

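Per the labels, chromatin was sheared to fragments of 200 to 500 bp before precipitation with anti-FLAG. The submitters' processing notes name Trimmomatic 0.32, Bowtie2 2.1.0 and SAMtools 0.1.17 for ChIP, and Trimmomatic, TopHat and Cufflinks for RNA. MACS 1.4.2 made 1 list from each library, with a p-value cutoff of 1e-05, per the file headers. The deposited lists give each peak's tag count, score, fold enrichment (a ratio) and false discovery rate in percent; these are the authors' values, used within a list. The authors' expression tables give FPKM per locus, so read depth is unknown. No source names the genome build or the annotation, and the input DNA sample was not analysed here.

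Gaps are the bases between nearest edges, after shifting locus starts by 1 base. Tag density is tags per kb over tags after filtering divided by the caller's genome size of 400 Mb. Named loci that reached 1 FPKM in 2 or more of 6 libraries entered limma 3.58.1 (R 4.3.3) as log2(FPKM + 1), with a trended empirical Bayes step, 1 mean per genotype, 3 residual degrees of freedom and Benjamini-Hochberg adjustment over 21480 loci; 13 loci with a failed estimate were left out. The scripts, in Python 3.11.15 and R, were tested on simulated data. The libraries of a genotype are biological repeats per the series' design text, with no word on separate plantings, so p-values measure only the spread between these samples.

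Peaks named are the 5 richest in tags, most enriched, widest and farthest, those beside the threshold and those of the 3 longest runs. Loci named are the targeted genes, called neighbours, the 5 highest neighbours, loci nearest to named peaks and unnamed loci under peaks. Peaks, lists and marker genes were chosen with earlier results of these data known, and gene symbols come from textbook knowledge, since the files give locus identifiers. Alternatives were other distances, thresholds, filters, pseudocounts, normalizations, sets of libraries and a replicate block.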

Additional observations from a re-analysis of the deposited data

How the results depend on the processing

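The share of wild-type-background-only peaks called far was 26.7% with far meaning more than 500 bp, 14.2% with 2 kb and 24.4% with a score of at least 100. The median distance became 2130 bp and 4425.5 bp with those distances, and the median width 999 bp with 2 kb. A score of at least 100, applied to the wild-type-background list only, left 70 far peaks. Their medians were 1204 bp and 58.5 tags, and 17 lay within 100 kb of another. A false discovery rate of at most 5% left all 236 and could not do otherwise, since the highest among them was 4.76%. The share of neighbours passing the FPKM filter was 53.1% with no filter and 20.3% at 5 FPKM. Called neighbours fell from 1 to 0 in wox11 with no FPKM filter and with 2 genotypes in the fit, and in jmj705 with no filter and with quantile normalization; the cause was not tested. Leaving out 1 library at a time gave 0 in wox11 each time and 0 to 1 in jmj705. Over all loci, no filter gave 34 and 62 calls, quantile normalization 55 in jmj705, and leaving out 1 library 21 to 182 in wox11 and 11 to 86 in jmj705, so these counts rest on few libraries. With the replicate number as a block, 1 neighbour was called in each mutant, with 230 and 89 calls over all loci. Deviations of same-numbered libraries correlated at 0.292, 0.118 and 0.114 over 21480 loci, but the labels do not pair them. With 1 library per background and 36 tags in the median peak, a peak absent from the other list may lie under its detection limit, which was not tested.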
